A study of Homo sapiens with 20 samples.

Results

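The Wnt and β-catenin pathway was followed through 10 of its genes in PAR-CLIP libraries of the RNA-binding protein IGF2BP3. The genes are CTNNB1 (ENSG00000168036), APC (ENSG00000134982), AXIN2 (ENSG00000168646), TCF7L2 (ENSG00000148737), RNF43 (ENSG00000108375), ZNRF3 (ENSG00000183579), LRP5 (ENSG00000162337), LRP6 (ENSG00000070018), ASCL2 (ENSG00000183734) and NKD1 (ENSG00000140807). They were found by these Ensembl identifiers among the 19962 genes of the deposited count table, and each identifier matched 1 row. PAR-CLIP feeds cells the uridine analogue 4-thiouridine, crosslinks protein to labelled RNA with long-wave ultraviolet light, and sequences the RNA fragments that come down with an antibody. Crosslinked 4-thiouridine is often read as C instead of T, and runs of reads with such conversions are reported as clusters.

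All libraries came from HCT116, a human colorectal carcinoma line, with the labelled genotype Tet-OsTIR1-PURO. Every culture received 100 µM 4-thiouridine for 15 h and was irradiated at 365 nm with 0.15 J/cm2. In the endoplasmic reticulum stress experiment, cells received 5 µg/mL tunicamycin (TM), a blocker of protein N-glycosylation, for 1 h or 4 h, or the vehicle DMSO at 1:1000 for 4 h. The 1 h treatment was therefore set against a 4 h vehicle. In the arsenite experiment, cells received 250 µM of an arsenic salt for 2 h, or PBS at 1:1000 for 2 h. The sample titles name the salt as arsenite, and the protocol as sodium arsenate. Each of the 5 conditions had 3 anti-IGF2BP3 libraries and 1 control IgG library. The labels do not say that the 3 libraries came from separate cultures, so the p-values measure the spread between these libraries, which may be technical. The genotype was shared by all groups, and no group without IGF2BP3 was analysed here.

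The 15 antibody libraries held 130478 to 1568406 gene-assigned counts, and the 5 IgG libraries 5981 to 17503. PBS replicate 2 was the shallowest antibody library. By their names, the libraries of the arsenite experiment form 1 set, and those of the TM experiment 2 sets. Antibody replicates 1 and 2 are in the first TM set. Antibody replicate 3 and the IgG libraries of the TM experiment are in the second. Levels of the PBS and arsenite libraries and those of the TM experiment therefore differ in vehicle and library set at once, and these cannot be told apart. Of the epithelial markers that could be placed by position, KRT8 had clusters in 14 of the 15 antibody libraries and CLDN4 in 7. No cluster lay in PTPRC (blood), PDGFRB (fibroblast) or ALB (liver).

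In the canonical pathway, Wnt ligands bind Frizzled receptors with the co-receptor LRP5 or LRP6. This halts the destruction complex, a scaffold of APC and Axin proteins that marks β-catenin, the product of CTNNB1, for degradation. Stabilised β-catenin then joins TCF/LEF factors such as TCF7L2 on DNA. Many targets feed back on the pathway: AXIN2 rebuilds the destruction complex, NKD1 dampens Dishevelled signalling, and the ubiquitin ligases RNF43 and ZNRF3 remove Frizzled receptors from the cell surface. ASCL2 is a target that encodes an intestinal stem cell transcription factor. Colorectal tumours commonly carry mutations in this pathway, and HCT116 is known for an activating CTNNB1 mutation beside intact APC. IGF2BP3 belongs to a family of mRNA-binding proteins known to favour CA-rich RNA elements.

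The sites below are among those with most cluster reads in their genes, and are shown so that the bound RNA can be read beside its values. Clusters of the 15 antibody libraries that overlapped by at least 1 base on the same strand were merged into regions, numbered within a gene by total reads. Each line gives 30 bases of the RNA strand, 5′ to 3′, that hold the position that the cluster caller reported as the mode of the region's deepest cluster. Positions are on GRCh38. Capitals mark the word CATT, its variant CATA, its variant CATC, and the word ACAC, which can overlap.
TCF7L2 region 1, chr10:113165678-113165707, plus strand: agacgccaagtcacagactgagcagaccca
TCF7L2 region 2, chr10:113167646-113167675, plus strand: attaataaaagcaacttagtatgtgcagat
TCF7L2 region 3, chr10:113167199-113167228, plus strand: gtttggtagcagattgtccagaaagCATTt
TCF7L2 region 4, chr10:113150979-113151008, plus strand: acagctttctgtcttctaggttccctcccc
TCF7L2 region 5, chr10:113141183-113141212, plus strand: gtctaacaaagtgccagtggtgcagcaccc
TCF7L2 region 6, chr10:113146015-113146044, plus strand: ggtcaaccagtgtacccaatcacgacagga
CTNNB1 region 1, chr3:41239706-41239735, plus strand: gagggctcgaggggtgggctggtatctcag
CTNNB1 region 2, chr3:41225086-41225115, plus strand: tggctgaacCATCacagatgctgaaacatg
CTNNB1 region 4, chr3:41239260-41239289, plus strand: atctggggcatgcccaggacctcatggatg
RNF43 region 1, chr17:58357908-58357937, minus strand: acagtgccccagggccctccctgagccagc
RNF43 region 2, chr17:58357710-58357739, minus strand: gatttttcccCATTACACccccagtgtggc
APC region 1, chr5:112842041-112842070, plus strand: tcttACACctgatcaagaagaaaaaccctt
LRP6 region 1, chr12:12121352-12121381, minus strand: cACACcctgcagcacagatgtttgtgacag
ZNRF3 region 1, chr22:29055240-29055269, plus strand: actaactcttctggtcacttgtatttattt
NKD1 region 1, chr16:50634484-50634513, plus strand: acgtatttaaggactatccctgagacCATC

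At least 1 of the CAT words occurred in 28 of the 88 full-length windows in the 10 genes (31.8%), against 38.7% of the 66659 windows of all regions. ACAC occurred in 10 of the 88 (11.4%), against 10.8% of all. Only the RNA strand was searched. The shares in the Wnt genes were thus close to or below those of all regions, and no test was made. The reported mode was a T in 31.4% of all regions and the first or last base of its cluster in 65.3%. What the caller marks with it is not given in the sources used here, so a window is not known to hold the peak or a converted base. Per RefSeq (GRCh38.p14), TCF7L2 spans chr10:112950247-113167678, CTNNB1 chr3:41199505-41240443, APC chr5:112707498-112846239 and RNF43 chr17:58352500-58417534. The span of LRP6 is chr12:12116025-12267044, that of LRP5 chr11:68298412-68449275, and that of ZNRF3 chr22:28883572-29057488. NKD1 spans chr16:50548396-50649249, AXIN2 chr17:65528563-65561648 and ASCL2 chr11:2268498-2270588. No other protein-coding span overlaps these 10. For LRP6, ZNRF3 and NKD1 the strand is that of their clusters, which all lay on one strand. The RefSeq table used here gives the span of each gene and no exons, so positions are described by their distance from the 3′ end of the span.

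Clusters lay in 8 of the 10 genes, 479 clusters of the 412123 in the antibody libraries, in 94 regions. TCF7L2 held most of them, with 299 clusters and 6737 reads in 22 regions on its plus-strand span of 217432 bases. CTNNB1 had 68 clusters and 589 reads in 20 regions. APC, the destruction complex scaffold, had 36 clusters in 22 regions, and 8 further clusters lay on its opposite strand. The co-receptor gene LRP6 had 26 clusters, RNF43 had 25, ZNRF3 had 18, NKD1 had 6 and LRP5 had 1. AXIN2 and ASCL2 had none. The IgG lists held 33 to 180 clusters per library, and none of these lay in any of the 10 genes. The shallowest antibody library, with 130478 counts, had 5 clusters in TCF7L2 and none in CTNNB1, and each IgG library was shallower still. Clusters were called library by library, and libraries with more reads had more clusters, so an absent cluster does not show an absent site.

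TCF7L2 was the most constantly clustered gene of the set. Its regions 1, 2 and 4 had a cluster in all 15 antibody libraries, as did 2.12% of all 75238 regions. That background is not matched in depth, since only 11282 of these regions had at least 100 reads. Regions 1, 2 and 3 lay 1629, 3 and 332 bases from the 3′ end of the span and together led the gene's reads, with 1530, 1434 and 1131. Regions 4, 5, 6 and 7 lay 16555 to 26359 bases from that end, with 305 to 587 reads each. The tenth of the span nearest the 3′ end, which holds several of these regions, carried 84.4% of the gene's cluster reads.

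In the upstream TCF7L2 regions, conversions made up a larger share of the counted events, conversions and non-conversions, than at the 3′ end. In region 6, 18.5% of events were conversions, and 0.514% of the 11282 regions with at least 100 reads reached that share. The share was 14.6% in region 5, 14.0% in region 4 and 13.3% in region 7. In regions 1, 2 and 3 it was 11.2%, 6.71% and 8.80%, against a median of 8.12% over the regions of that depth. Among all regions of that depth, 11.8%, 80.8% and 36.6% reached these respective shares. These shares are a description of pooled libraries and depend on how many T bases each region holds.

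**Figure D1:**
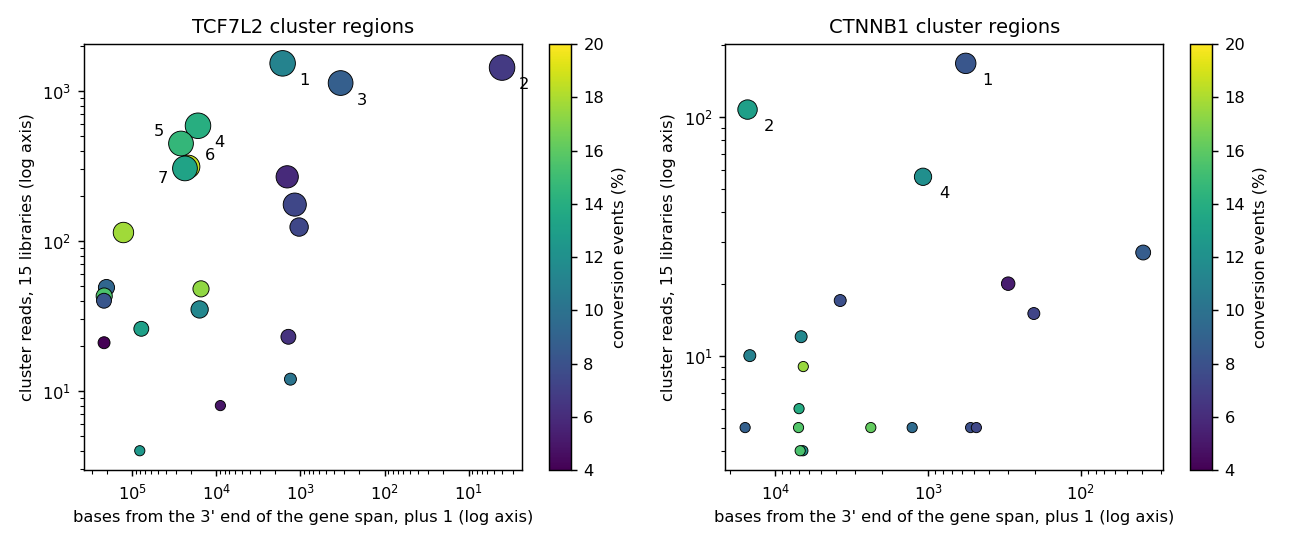
Cluster regions of TCF7L2 (left) and CTNNB1 (right), each point 1 region described here, by its distance from the 3′ end of the gene span in bases plus 1 (log axis, 3′ end to the right) and its reads over 15 libraries (log axis). Colour is the percentage of conversion events and point size grows with the number of libraries, and the numbers name the regions in the text. In TCF7L2, regions 1 to 3 near the 3′ end hold 1131 to 1530 reads, while regions 4 to 7 further upstream have conversion shares of 13.3% to 18.5%.

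Across conditions the TCF7L2 conversion share was 8.96% ± 0.310 (SD, n = 3) in PBS, 10.8% ± 0.690 in arsenite, 9.53% ± 0.842 in DMSO, 9.22% ± 2.62 in TM 1 h and 10.2% ± 1.36 in TM 4 h. All 3 arsenite libraries (11.6%, 10.5% and 10.3%) lay above all 3 PBS libraries (9.31%, 8.71% and 8.87%). Conversions set against the gene's cluster reads overlapped, however. The arsenite libraries had 175, 280 and 536 conversions on 263, 453 and 818 reads, and the PBS libraries 190, 23 and 159 on 296, 32 and 274. Over all clusters, the share was 8.63% to 8.81% in the arsenite libraries and 7.95% to 8.13% in the PBS libraries, so it moved the same way. The part of this library-wide shift in the TCF7L2 values was not tested. Region 2, at the very 3′ end, held 14.5% ± 3.69 (SD, n = 3) of the gene's cluster reads in arsenite and 33.4% ± 19.8 in PBS. Region 5 held 9.81% ± 0.408 in arsenite and 2.93% ± 2.56 in PBS. The PBS values were widely spread, and 1 of the 3 PBS libraries, the shallowest, had only 32 cluster reads in TCF7L2.

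Gene-assigned reads were then compared between conditions, with each gene's count scaled to counts per 1000000 reads (CPM) by 1 set of TMM factors over the 15 antibody libraries. Such counts rise with the amount of an RNA as well as with its binding, and these cannot be told apart without RNA levels, which were not analysed here. In such bulk libraries fewer cells with a transcript and less of it per cell cannot be told apart either. Levels are compared between conditions and not between genes.

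No difference in the share of reads of these genes was shown between the antibody and the IgG libraries. On the scale of library totals, TCF7L2 had 772 CPM in the summed antibody libraries (95% exact binomial interval 755 to 789) and 957 in the summed IgG libraries (710 to 1261, from 50 counts of 52256). CTNNB1 had 144 CPM (137 to 152) and 134 (53.9 to 276). APC, LRP6, ZNRF3 and NKD1 rested on 4 to 7 IgG counts each and AXIN2 on 1. RNF43 and LRP5 had 0 of the 52256 IgG counts, which allows up to 57.4 CPM (3 counts), above their 14.0 and 15.7 CPM in the antibody libraries. Intervals and this limit cover counting error only.

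Of the 6 genes with enough reads to be tested against IgG, none passed the adjusted threshold of 0.05 (edgeR, scaled by library totals). None did at an unadjusted p under 0.05 or in DESeq2 either. The background was 1.31% of the 7022 genes tested. For TCF7L2 the log2 difference of antibody over IgG was -0.33 (95% interval -0.76 to 0.10), so a difference of 2-fold lay outside its interval. Its sign depended on the scaling: with TMM, which moved the median over all genes from 0.09 to 0.71, it was 0.30. For CTNNB1 it was 0.07 (-1.04 to 1.19), and a 2-fold difference either way was not detectable at this depth. APC had 0.16 (-1.04 to 1.35), ZNRF3 -0.19 (-1.71 to 1.33), LRP6 -0.54 (-1.74 to 0.66) and NKD1 -0.22 (-1.74 to 1.31), each with an interval at least as wide as that of CTNNB1. The gene counts thus did not set these genes apart from IgG. Clusters, which need conversions, lay in 8 of the 10 genes in the antibody libraries. These were 479 of 412123 antibody clusters, and the IgG lists held only 440 clusters in all. So few IgG clusters cannot show whether the clusters set these genes apart from IgG.

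**Figure D2:**
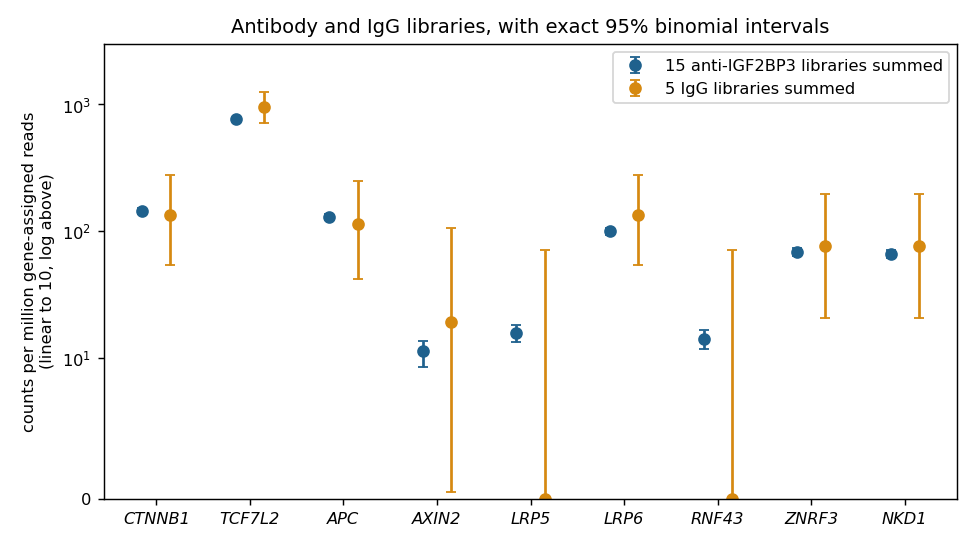
CPM of library totals (linear to 10, log above) of 9 Wnt pathway genes in the 15 anti-IGF2BP3 libraries summed (blue) and the 5 IgG libraries summed (orange), with exact 95% binomial intervals. Every orange interval contains the blue value, for TCF7L2 with 710 to 1261 around 772.

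CTNNB1, the gene of β-catenin itself, rose in arsenite. It had 134, 135 and 145 CPM in the 3 PBS libraries and 282, 216 and 230 in the 3 arsenite libraries. The lowest arsenite library exceeded the highest PBS library. The group means were 138 ± 6.16 and 243 ± 34.6 CPM (SD, n = 3), and the log2 difference was 0.77 (SE 0.15), a fold of 1.71, and the edgeR adjusted p was 1.26e-05. In the TM experiment CTNNB1 had 134, 93.9 and 112 CPM in DMSO, 106, 129 and 111 after 1 h, and 121, 130 and 157 after 4 h. These 3 groups overlapped. The log2 difference was 0.08 (SE 0.16, adjusted p = 0.934) at 1 h and 0.36 (SE 0.14, adjusted p = 0.125) at 4 h, neither past the threshold. In the order of levels, arsenite stood above the other 4 conditions, whose libraries ran from 93.9 to 157 CPM and overlapped one another in part.

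CTNNB1 was also read from its clusters, which held fewer reads than its gene-assigned counts. In PBS replicate 1 the clusters held 12 reads beside 55 counts, and in arsenite replicate 1 they held 46 beside 111. As reads per 1000000 cluster reads of a library (RPM), the PBS libraries had 49.1, 0 and 47.9 and the arsenite libraries 211, 124 and 192. The clusters covered 0 to 126 bases per PBS library and 243 to 817 per arsenite library. Over the covered bases, the reads per 100 bases were 14.8 and 8.73 in the 2 PBS libraries with clusters and 18.9, 18.1 and 19.5 in arsenite. These 2 measures are not scaled for depth. The PBS libraries held 42699 to 244475 cluster reads and the arsenite libraries 218140 to 828783, and the part of depth was not tested. PBS replicate 1 and arsenite replicate 1 were of like depth, with 423906 and 414033 counts. They had 49.1 and 211 RPM in CTNNB1 clusters, beside 134 and 282 CPM in its gene-assigned counts. This is 1 pair, and the part of depth was not tested with it either. In this pair the clusters covered 81 and 243 bases, with 14.8 and 18.9 reads per 100 bases.

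CTNNB1 region 4, printed above, had clusters in 3 of 3 arsenite libraries and in 0 of 3 PBS and 0 of 3 DMSO libraries. It also had clusters in 1 of 3 TM 1 h and 2 of 3 TM 4 h libraries. Region 2 was clustered in 3 of 3 arsenite libraries and in 1 of 3 PBS libraries. Region 1, 566 bases from the 3′ end of the span, was clustered in 2 of 3 libraries of both groups. Region 2 lay 15242 bases from that end. The DMSO libraries reached 1287291 counts and the arsenite libraries 1098488. In these deepest libraries CTNNB1 had 139 counts in DMSO 3 and 244 in arsenite 3. The part of library depth and of the gene's own reads in the clusters of region 4 was not tested. The region was singled out after its values were seen, and no test was made.

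**Figure D3:**
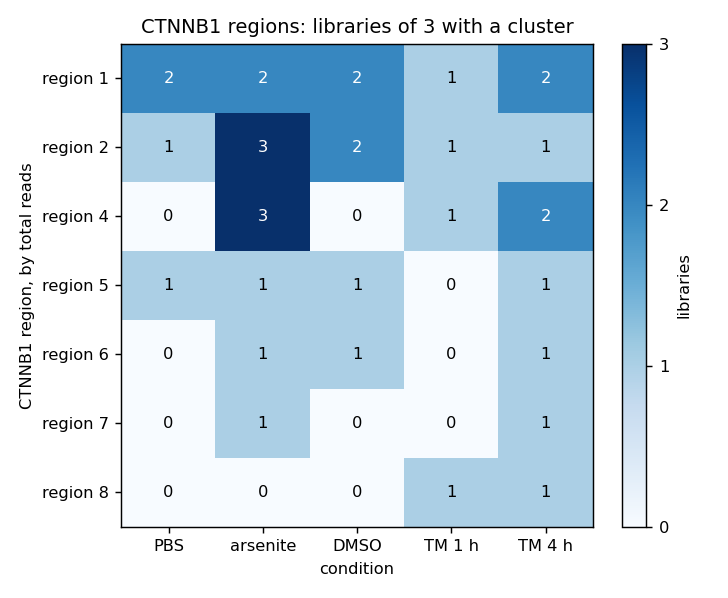
Number of libraries, of 3 per condition, with a cluster in each of 7 CTNNB1 regions (rows, by total reads; columns, conditions). Region 4 shows 3 of 3 arsenite libraries and 0 of 3 in PBS and DMSO, while region 1 shows 1 or 2 libraries in every condition.

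NKD1, a Wnt target whose product dampens Dishevelled signalling, fell in arsenite. It had 85.3, 71.5 and 73.9 CPM in PBS and 53.3, 30.1 and 31.1 in arsenite. All arsenite libraries lay below all PBS libraries. The means were 76.9 ± 7.38 and 38.2 ± 13.1 CPM (SD, n = 3), and the log2 difference was -1.14 (SE 0.27), a fold of 0.454, with an adjusted p of 0.000334. These values rest on 9 to 35 counts per library. In the TM experiment NKD1 had 82.3, 87.5 and 74.9 CPM in DMSO, 50.9, 68.8 and 71.0 after 1 h, and 58.4, 84.5 and 79.2 after 4 h. The 1 h libraries all lay below the DMSO libraries, but the log2 difference of -0.26 (SE 0.19, adjusted p = 0.707) missed the threshold. At 4 h the groups overlapped, with a log2 difference of -0.08 (SE 0.16, adjusted p = 0.869). Its 6 clusters came from DMSO and TM libraries, and none from PBS or arsenite.

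The other genes tested in arsenite did not pass the threshold. TCF7L2 had 907, 691 and 859 CPM in PBS and 911, 911 and 861 in arsenite, a log2 difference of 0.07 (95% interval -0.09 to 0.23). The destruction complex gene APC had 163, 111 and 135 CPM against 124, 132 and 146, a difference of -0.07 (-0.40 to 0.27). The co-receptor gene LRP6 had 65.8, 79.5 and 110 CPM against 68.5, 85.4 and 68.8, a difference of -0.22 (-0.66 to 0.22). The receptor-turnover gene ZNRF3 had 90.2, 87.4 and 51.0 CPM against 50.8, 78.7 and 62.2, a difference of -0.18 (-0.66 to 0.30). In all 4 the groups overlapped.

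In total, 6 of the 10 genes had enough reads to be tested in arsenite against PBS, of which 1 rose and 1 fell. Over all 6642 genes tested, 34.8% passed the same threshold, 17.6% higher and 17.1% lower. Non-overlapping groups were found in 2 of the 6, against 43.6% of all genes. The median log2 difference was -0.12 over the 6 genes and -0.00 over all genes. The count of 2 among 6 is near the background and says nothing particular of the Wnt genes. AXIN2, RNF43 and LRP5, with 0 to 25 counts in each of these 6 libraries, and ASCL2, with 0 counts in all 20 libraries, did not pass the filter on low counts.

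**Figure D4:**
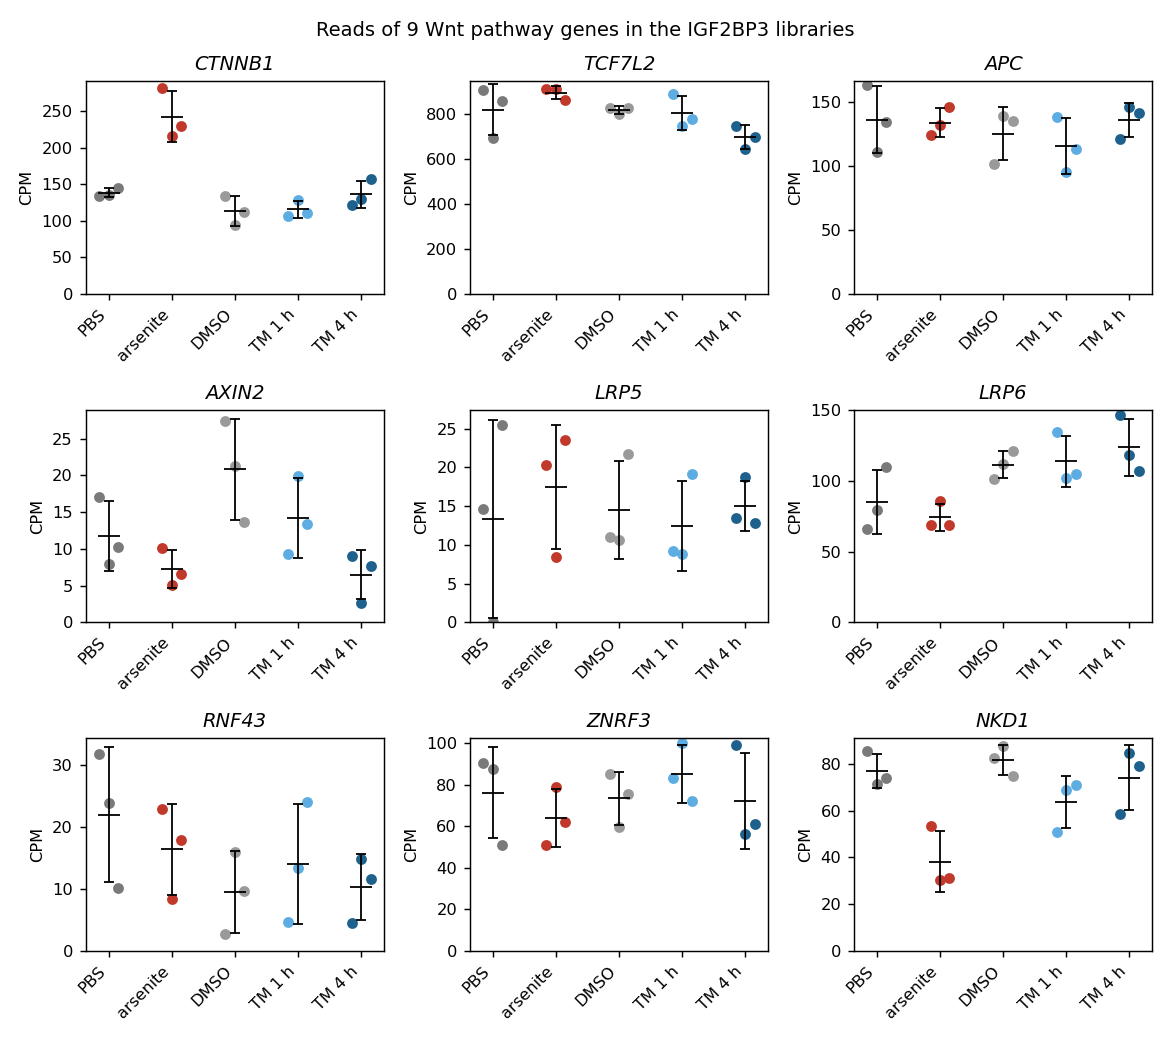
CPM of 9 Wnt pathway genes in each anti-IGF2BP3 library (points) by condition, with the mean and SD of 3 libraries (black); every vertical axis starts at 0 and has its own range. CTNNB1 stands at 216 to 282 CPM in arsenite and at most at 157 elsewhere, NKD1 at 30.1 to 53.3 in arsenite, and AXIN2 at 2.68 to 8.99 after 4 h of TM against 13.7 to 27.4 in DMSO.

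AXIN2, a direct β-catenin target and destruction complex scaffold, fell after 4 h of TM. It had 27.4, 21.3 and 13.7 CPM in DMSO, from 10, 20 and 17 counts. It had 8.99, 2.68 and 7.73 CPM after 4 h, from 4, 2 and 12 counts. All 4 h libraries lay below all DMSO libraries. The means were 20.8 ± 6.89 and 6.47 ± 3.34 CPM (SD, n = 3), and the log2 difference was -1.51 (SE 0.43), a fold of 0.351, with an adjusted p of 0.0216. The 1 h libraries had 9.26, 20.0 and 13.4 CPM, between the others and overlapping DMSO, with a log2 difference from DMSO of -0.36 (SE 0.41, adjusted p = 0.851). The call at 4 h was lost on leaving out any 1 of 4 libraries: the adjusted p became 0.0644 without DMSO 1, 0.136 without DMSO 2, 0.135 without TM 4 h 2 and 0.0692 without TM 4 h 3. With replicates 1 and 2 alone, which share a library set, AXIN2 did not pass the filter on low counts. In the arsenite experiment AXIN2 had 17.1, 7.95 and 10.2 CPM in PBS and 10.2, 5.02 and 6.60 in arsenite, which overlap.

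TCF7L2 had 829, 798 and 826 CPM in DMSO and 748, 644 and 698 after 4 h of TM. All 4 h libraries lay below all DMSO libraries, but the log2 difference of -0.24 (SE 0.079) had an adjusted p of 0.064. After 1 h it had 889, 746 and 779 CPM, which overlap DMSO, with a log2 difference of -0.04 (95% interval -0.21 to 0.12). As the gene with most reads of the set, with 7924 counts over 15 libraries, it had the narrowest intervals.

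The receptor genes showed no change past the threshold under TM. LRP6 had 102, 112 and 121 CPM in DMSO, 134, 102 and 105 after 1 h, and 146, 118 and 107 after 4 h. The log2 difference from DMSO was -0.07 (95% interval -0.39 to 0.25) at 1 h and 0.05 (-0.23 to 0.34) at 4 h. ZNRF3 had 85.1, 59.7 and 75.7 CPM in DMSO, 83.3, 99.9 and 71.9 after 1 h, and 98.9, 56.3 and 61.2 after 4 h. Its difference was 0.20 (-0.19 to 0.58) at 1 h and -0.09 (-0.46 to 0.27) at 4 h. RNF43 ranged from 2.74 to 24.0 CPM over these 9 libraries, on 1 to 25 counts each. Its 1 h difference of 0.72 (-0.16 to 1.602) and its 4 h interval of -0.85 to 0.92 show how little was resolved. LRP5 ranged from 8.88 to 21.7 CPM, with a 1 h difference of -0.09 (-0.91 to 0.73) and a 4 h interval of -0.85 to 0.63.

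The destruction complex gene APC did not pass the threshold under TM either. It had 102, 140 and 135 CPM in DMSO, 139, 95.5 and 113 after 1 h, and 121, 146 and 141.7 after 4 h, and these groups overlapped. Its log2 difference from DMSO was -0.22 (95% interval -0.53 to 0.08) at 1 h and 0.08 (-0.19 to 0.35) at 4 h.

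Against DMSO, 1 of the 9 genes tested was called after 4 h of TM, the fall of AXIN2. Of all 8343 genes, 5.11% were called, 2.31% of all being lower. Groups did not overlap in 2 of the 9, against 20.6% of all genes. After 1 h none of the 9 was called, and the background was 0.551%. None had an unadjusted p under 0.05 either, and DESeq2 called none. Groups did not overlap in 1 of the 9, against 15.3% of all. Between 4 h and 1 h of TM none was called by edgeR or DESeq2, with a background of 11.6%, while 3 had an unadjusted p under 0.05: APC with a log2 difference of 0.31, AXIN2 with -1.15 and TCF7L2 with -0.20. The other 6 tested there were CTNNB1 (0.28), NKD1 (0.18), LRP6 (0.12), LRP5 (-0.02), ZNRF3 (-0.29) and RNF43 (-0.69). There the groups did not overlap in 1 of the 9, against 26.8% of all. The TM comparisons share libraries, so their values are not independent of one another.

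**Figure D5:**
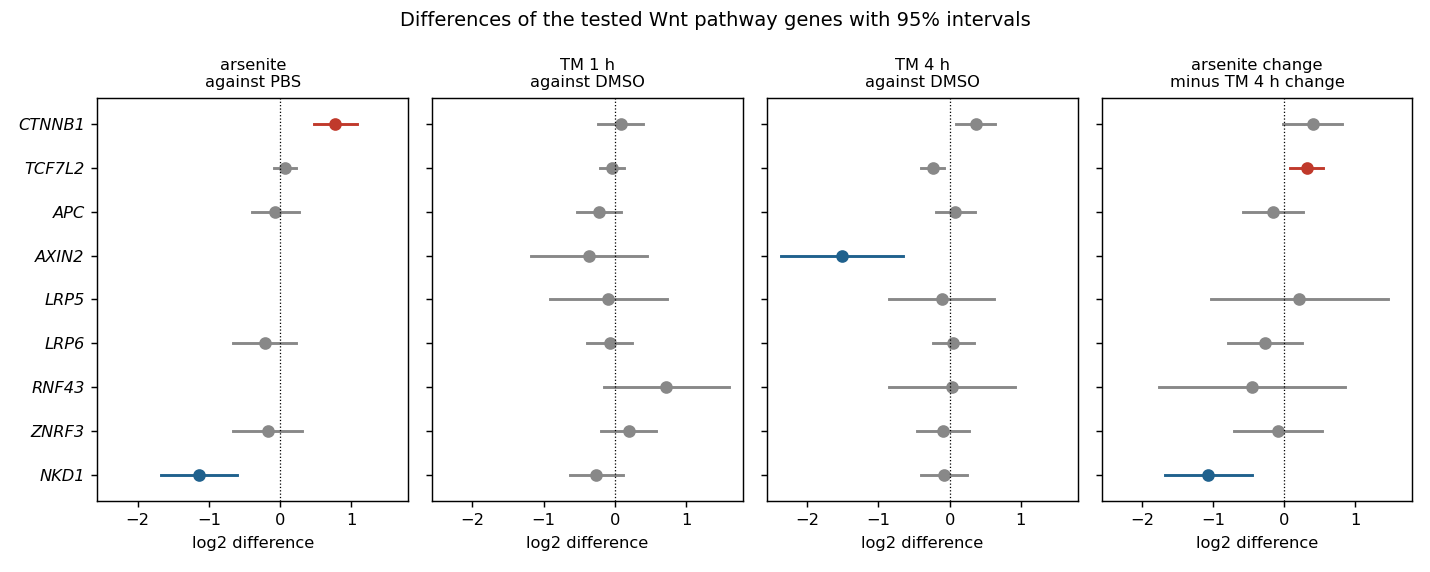
Log2 difference (points) with 95% interval (lines) of each tested Wnt pathway gene in 4 comparisons; red marks genes called higher and blue genes called lower at an edgeR adjusted p under 0.05, grey those not called, and an empty row a gene that was not tested. CTNNB1 (0.77) and NKD1 (-1.14) are called in arsenite, AXIN2 (-1.51) after 4 h of TM, and TCF7L2 (0.31) and NKD1 (-1.07) in the difference between the stresses.

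The change in arsenite was also set directly against the change after 4 h of TM, each relative to its own vehicle. For NKD1 the arsenite change was lower by a log2 difference of -1.07 (SE 0.31, edgeR adjusted p = 0.00834). For TCF7L2 it was higher by 0.31 (SE 0.11), with an adjusted p of 0.046. For CTNNB1 the difference of 0.40 (SE 0.21, adjusted p = 0.189) missed the threshold, so its rise in arsenite was not shown to be larger than its change under TM. These were 2 of the 8 genes tested, against a background of 18.3% of 7796 genes. The TCF7L2 call was lost in 9 of the 12 fits that left out 1 library, with adjusted p-values up to 0.136, and the NKD1 call in 2, without PBS 1 (adjusted p = 0.0665) or without arsenite 3 (adjusted p = 0.0619). DESeq2 made neither call, with adjusted p = 0.0921 for TCF7L2 and 0.0535 for NKD1.

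Clusters of the remaining genes were sparse. LRP6 region 1 had clusters in 8 of the 9 libraries of the TM experiment (3 DMSO, 2 TM 1 h and 3 TM 4 h) and in 0 of the 6 PBS and arsenite libraries, of which the deepest held 1098488 counts. The LRP6 level was 111 ± 9.62 CPM in DMSO and 84.9 ± 22.4 in PBS (SD, n = 3). RNF43 had clusters in 11 libraries, including 3 of 3 arsenite and 3 of 3 TM 1 h libraries, all in the tenth of the span nearest the 3′ end. APC had clusters in 3 of 3 TM 4 h libraries and in 0 of 3 PBS libraries. The PBS libraries held at most 423906 counts, so their depth moves with these absences, and its part in them was not tested.

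Across the 15 antibody libraries, the log2 CPM of CTNNB1 was followed most closely by genes that the table gives by identifier only, ENSG00000026508_20 (Pearson r = 0.93) and ENSG00000182944_18 (r = 0.92), among the 1740 genes that averaged 100 or more counts. Among the pathway genes, r with CTNNB1 was 0.36 for TCF7L2, 0.20 for RNF43, 0.18 for LRP5, 0.08 for APC, -0.36 for ZNRF3, -0.39 for AXIN2, -0.65 for NKD1 and -0.70 for LRP6. Those of AXIN2, RNF43 and LRP5 rest on few counts. The points share libraries and depth and fall in 2 experiments, and CTNNB1 was highest in the 3 arsenite libraries.

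Other genes of the pathway were read from cluster positions, since the count table does not pair its identifiers with symbols. Of 104 listed genes, 78 could be placed on a strand, 38 of these had a cluster in an antibody library, and 29 had a mean of at least 10 cluster reads per library. In arsenite the cluster RPM was higher in all 3 libraries than in all 3 PBS libraries for 8 of the 29, against 21.8% of the 3595 genes with as many reads. It was lower for 4 of the 29, against 9.96%. JUN, one of the 8, reached this read level only through its arsenite libraries and so had to be higher there. With the mean of 10 reads asked of the 12 other libraries, a filter chosen after the data were seen, 7 of 28 genes were higher, against 20.3% of 3586, and 4 were lower, against 10.0%. After 1 h of TM, 1 gene was higher and 1 lower than in DMSO, against 3.14% and 6.76% of all. After 4 h, 1 was higher and 1 lower, against 6.51% and 4.98%. The genes named below are those whose groups did not overlap, a rule chosen after the data were seen, and their values carry no test. The PBS libraries held 3579 to 16430 clusters and the arsenite libraries 15648 to 45613. A shallow library can lack a called cluster in a gene with few reads and so have 0 RPM. BCL9 and CSNK1E had such values in PBS, and the part of depth was not tested.

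Among targets, JUN, an immediate early transcription factor gene, had clusters in the 3 arsenite libraries only, of the 15 antibody libraries, at 581 ± 40.0 RPM (SD, n = 3). It met the read minimum through these libraries alone, so its level is a description. CD44, an adhesion receptor and Wnt target, had 2862 ± 490 in arsenite and 1598 ± 232 in PBS. In the nuclear class, the β-catenin co-activator genes EP300 and BCL9 were higher in arsenite, at 658 ± 15.8 against 198 ± 98.4 and at 162 ± 19.0 against 17.4 ± 30.2. For BCL9, 1 PBS library had 52.3 RPM and the others 0. KDM2A and CTBP2 were also higher. The spans of BCL9 and CTBP2 each overlap another protein-coding span, which lies on the plus strand. Cluster reads were counted on each gene's own strand, so they may be shared only where that strand is the same. The co-repressor genes CTBP1 and TBL1XR1 were lower, at 91.1 ± 6.02 against 195 ± 58.1 and at 324 ± 55.0 against 610 ± 27.2. CTBP2, of the same family as CTBP1, went the other way, at 267 ± 27.1 against 158 ± 41.7. The nuclear genes thus did not divide by role.

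In the cytoplasmic class, PPP2CA, a catalytic subunit of protein phosphatase 2A, had 1346 ± 200 RPM in arsenite and 768 ± 85.2 in PBS. CSNK1E, a casein kinase gene whose span overlaps a read-through gene, had 117 ± 35.0 against 22.3 ± 22.5. GSK3A, which encodes a β-catenin kinase, was lower, at 79.6 ± 2.51 against 181 ± 61.8. The ligand gene WNT16 was lower in arsenite, at 89.6 ± 31.3 against 269 ± 72.7, and after 4 h of TM, at 106 ± 23.8 against 173 ± 27.3 in DMSO. DKK1, a secreted Wnt antagonist, had 119 ± 104 RPM after 1 h of TM and 237 ± 51.8 in DMSO. The highest 1 h library, at 193, lay just below the lowest DMSO library, at 195, and 1 library at 0 lowers the 1 h mean. PPP2R1A was higher after 4 h, and CTBP2 after 1 h. CSNK1A1 and DVL3, with clusters in all 15 libraries, overlapped between groups in each comparison.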

How the data were processed

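PAR-CLIP libraries of HCT116 cells were analysed, 15 with anti-IGF2BP3 and 5 with IgG. Per the file headers, the authors deposited a table of raw gene counts, a column for each library, and a list of clusters for each library, giving reads, conversions and non-conversions. The submitters' processing notes name bcl2fastq 2.20.0.422, UMI-tools 1.1.1, Trimmomatic 0.30, Bowtie 0.12.7, featureCounts 2.0.1 and a GRCh38 build. The cluster caller is not given in the sources used here. Every deposited cluster had at least 2 reads and 2 conversion locations. The IgG cluster lists of the PBS and arsenite samples carry each other's names, and the deposited attachment was followed.

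Counts were tested across all genes with edgeR 4.0.16 in R 4.3.3 (filterByExpr, TMM, two-sided quasi-likelihood test, Benjamini-Hochberg, threshold 0.05), with library totals as the only scaling against IgG. The TM groups shared 1 fit of 9 libraries, PBS and arsenite 1 of 6, and the difference between stresses 1 of 12. The SE is the log2 difference over the square root of F. The fits were tested on simulated data. Alternatives were DESeq2 1.42.0, other scalings, no filter, a replicate block, library sets and leaving out libraries. Cluster positions were checked against RefSeq promoters (GRCh38.p14): 533 of 533 clusters inside them were identical in sequence. RefSeq spans placed clusters in genes. One CTNNB1 region is not reported here.

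The named genes are the 10 chosen genes in every comparison. The genes and lists were chosen with earlier results of these data known. Wnt genes and markers other than these were read from cluster positions by a rule added after the data were seen, because the symbols could not be paired with the table's identifiers.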

Additional observations from a re-analysis of the deposited data

Results flagged for a closer look

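The change of NKD1 in arsenite and its change after 4 h of TM, each against its own vehicle, differed by -1.07 on the log2 scale, by a test of the difference itself. For TCF7L2 the same difference was 0.31, and it was the less stable of these results, as given above. With 3 libraries per group, single libraries were not screened as outliers.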

How the results depend on the processing

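Among the 10 genes, the arsenite calls (CTNNB1 and NKD1) and the absence of calls for TM 1 h against DMSO, TM 4 h against TM 1 h and antibody against IgG kept their number under every alternative run for them. The TM 4 h call against DMSO (1 gene) went to 0 with DESeq2, where the adjusted p of AXIN2 is NA, to 0 within the set of replicates 1 and 2, and to 2 with no filter; without single libraries it ran from 0 to 2. The difference between stresses (2 genes) gave 1 by library totals, 0 with DESeq2, and 1 to 2 without single libraries. Of the 94 cluster regions, 33 remained with clusters of at least 10 reads. With the replicate block the calls numbered 1 for TM 4 h, 2 for arsenite and 2 for the difference between stresses, so it changed none. Same-numbered libraries did not deviate together (correlations from -0.041 to 0.015). Correlations over genes with few counts can miss a shared deviation, so a pairing is not excluded.

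All changes of sign were in genes that were not called, and their cause was not tested. For LRP5, TM 4 h against TM 1 h, the log2 difference became 0.0044 by library totals, 0.034 with the replicate block and 0.028 with library set as a factor. Within the set of replicates 1 and 2, LRP6 at 1 h became 0.059 and ZNRF3 at 4 h 0.11. Against IgG with TMM, TCF7L2 became 0.30, ZNRF3 0.43, LRP6 0.091 and NKD1 0.38, and without the PBS and arsenite libraries CTNNB1 became -0.73. Without single libraries, arsenite differences ran from -0.14 to 0.095 for APC, -0.45 to 0.10 for LRP6 and -0.45 to 0.11 for ZNRF3. TM 1 h differences ran from -0.035 to 0.16 for CTNNB1, -0.81 to 0.46 for LRP5 and -0.14 to 0.0045 for LRP6. TM 4 h differences ran from -0.35 to 0.44 for LRP5, -0.043 to 0.18 for LRP6, -0.17 to 0.21 for RNF43 and -0.27 to 0.038 for ZNRF3, and against TM 1 h from -0.23 to 0.70 for LRP5. Differences between stresses ran from -0.23 to 0.027 for APC, -0.35 to 0.85 for LRP5, -0.49 to 0.070 for LRP6, -0.91 to 0.22 for RNF43 and -0.35 to 0.22 for ZNRF3.

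Depth limits AXIN2, RNF43 and LRP5 (116, 144 and 161 counts over 15 libraries) and every IgG value. Over all genes, DESeq2 called 6 against 46 at TM 1 h, 151 against 426 at TM 4 h, 502 against 967 between the TM times, 1233 against 2310 in arsenite and 854 against 1427 between stresses. Within replicates 1 and 2 the TM counts were 16, 129 and 488. Without single libraries they fell to 13 at 1 h (without DMSO 3; also 17 without TM 1 h 2 and 23 without TM 1 h 1), to 178 at 4 h (without DMSO 3; also 247 without TM 4 h 3), and to 523 between times (without TM 1 h 3). Against IgG, 92 became 582 with TMM, 177 with DESeq2, 57 without PBS and arsenite and 156 with no filter. The single DESeq2 values with an NA adjusted p were left out.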
